A study of Homo sapiens with 12 samples.

Results

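The clade B serpins are a family of protease inhibitors that includes maspin, the product of *SERPINB5*. A list of 8 genes was taken (*SERPINB1*, *SERPINB2*, *SERPINB3*, *SERPINB5*, *SERPINB6*, *SERPINB7*, *SERPINB8* and *SERPINB9*), and every probe set that the platform annotation pairs with one of them alone was used. It paired 14 probe sets with 6 of the 8 genes, out of 19775 genes with a probe set of their own. *SERPINB2* and *SERPINB6* had none and were not analysed here. The list was chosen by a measured value, the log2 change of *SERPINB5* with nutlin-3, which ranked 2 among the 13673 genes tested. All values of nutlin-3 against DMSO, and of the difference between the agents, are therefore descriptions of these genes without a test.

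The cells were U2OS, a human osteosarcoma line that carries endogenous wild-type p53 per the labels. They were left untreated, treated with 0.6 µg/ml doxorubicin, kept in 0.1% DMSO, or treated with 10 µM nutlin-3, and RNA was taken at 24 hours and hybridised to Affymetrix Human Genome U133 Plus 2.0 arrays. Doxorubicin is a topoisomerase II poison that breaks DNA, and its control was the untreated group. Nutlin-3 frees p53 from MDM2 without breaking DNA, and its control was the DMSO group. Each of the 4 groups had 3 arrays of this single line. Whether these were separate cultures is not said in the labels, so the p-values speak of array-to-array spread alone, and that spread may be technical.

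Serpins hold out a flexible reactive loop as bait, and most trap the protease that cuts it in a complex that does not come apart. Clade B members lack a classical secretion signal and act largely inside the cell. Maspin is an exception among them, since it does not inhibit proteases in this way. It was described as a tumour suppressor of mammary epithelium, and its gene as a p53 target. The human genes lie in a cluster on chromosome 18 and another on chromosome 6. In the RefSeq gene table the chromosome 18 cluster runs from *SERPINB5* at one end to *SERPINB8* at the other, and the chromosome 6 cluster holds *SERPINB1*, *SERPINB9* and *SERPINB6* in that order.

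The promoters of the genes with a usable signal are shown because *SERPINB5* and *SERPINB8* were both higher with each agent, whereas *SERPINB7* and *SERPINB1* were not. Each is the stretch of 250 bases before a gene start in RefSeq (GRCh38.p14), read 5′ to 3′ on the gene's own strand. Capitals mark every match of TGANTCA, a form that covers AP-1 sites, on either strand, of TATAAA on the gene's strand, and of the p53 consensus decamer with the core CATG and 1 mismatch outside it. No marked motifs overlap each other. The *SERPINB5* stretch is chr18:63476708-63476957 (plus strand), that of *SERPINB8* is chr18:63969831-63970080 (plus strand), that of *SERPINB7* is chr18:63752807-63753056 (plus strand), and that of *SERPINB1* is chr6:2841864-2842113 (minus strand).
SERPINB5: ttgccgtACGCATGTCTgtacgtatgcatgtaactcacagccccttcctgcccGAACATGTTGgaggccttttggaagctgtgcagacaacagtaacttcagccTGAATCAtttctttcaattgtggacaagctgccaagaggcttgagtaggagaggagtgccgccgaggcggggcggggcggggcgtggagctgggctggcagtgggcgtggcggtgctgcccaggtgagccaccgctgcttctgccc
SERPINB8: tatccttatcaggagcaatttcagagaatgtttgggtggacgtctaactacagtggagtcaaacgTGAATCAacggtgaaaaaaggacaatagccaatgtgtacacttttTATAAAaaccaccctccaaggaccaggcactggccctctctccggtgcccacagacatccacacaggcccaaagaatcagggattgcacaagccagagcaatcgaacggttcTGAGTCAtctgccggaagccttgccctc
SERPINB7: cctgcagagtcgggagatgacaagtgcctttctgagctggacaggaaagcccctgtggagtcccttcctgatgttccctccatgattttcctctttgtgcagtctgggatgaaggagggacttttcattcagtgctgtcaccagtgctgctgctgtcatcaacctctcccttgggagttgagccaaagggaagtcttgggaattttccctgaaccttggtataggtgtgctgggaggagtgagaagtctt
SERPINB1: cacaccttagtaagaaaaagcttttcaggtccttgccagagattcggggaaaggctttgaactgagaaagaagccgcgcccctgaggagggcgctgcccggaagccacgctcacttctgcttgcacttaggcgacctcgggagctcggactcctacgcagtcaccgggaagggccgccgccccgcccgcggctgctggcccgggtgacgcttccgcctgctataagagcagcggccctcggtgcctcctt

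Of these 4 stretches, that of *SERPINB5* alone held p53-like decamers of the form marked, with the core CATG. They were ACGCATGTCT at -243 to -234 and GAACATGTTG at -197 to -188, counted from the start with -1 as the base before it. Decamers with another core and 1 mismatch were not marked, such as AGCCTTGCCC in the *SERPINB8* stretch. An exact match of the p53 consensus decamer was found in the promoter window of 0 of the 8 genes and in 6.63% of all 35116 windows of 300 bases in the table, which reach 50 bases past the start. The form with 1 mismatch was found for 2 of the 8 genes (*SERPINB5* and *SERPINB2*) and in 8.15% of all windows. The motif forms were chosen with earlier results of these data known. The shares count windows, of which a gene can have several, so counts of genes are not compared with them. TGANTCA was found for 4 of the 8 genes, *SERPINB2*, *SERPINB5*, *SERPINB7* and *SERPINB8*, in 5 of the 13 windows that the 8 genes have, and in 7.71% of all windows. These 4 genes all lie on chromosome 18. *SERPINB8* held it at 2 places. The printed *SERPINB7* stretch, at the start of its gene model, held no marked motif, and the windows of its 2 alternative starts held TGANTCA at 2 places each. TATAAA, found in 7.33% of all windows, was present in the *SERPINB8* stretch at -140 to -135. It also lay in windows of *SERPINB2*, *SERPINB6* and *SERPINB9* and of an alternative start of *SERPINB7*. The promoter windows also differed in composition. That of *SERPINB1* had 27 CpG dinucleotides and that of *SERPINB9* had 35, against 16 for *SERPINB5*, 9 for *SERPINB8*, 3 for *SERPINB3* and a median of 14 over all windows. The window of *SERPINB2* had 1, and that of *SERPINB7* at the start of its gene model had 2. Those of *SERPINB6* had between 7 and 45. A match describes these letters alone and shows no binding.

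Signals in the text are MAS5 values on a linear scale, and changes are differences of log2(signal + 16), so they understate the change of dim genes. A gene was tested if its brightest probe set had a mean in the upper 60% of probe sets, which corresponds to a signal of 49.3. Of the 6 genes measured, 4 passed: *SERPINB1*, *SERPINB5*, *SERPINB7* and *SERPINB8*. *SERPINB5* passed only through its treated arrays, so it had to differ between groups once it passed, and its test is given from a fit of every probe set with no filter. Signals are not compared between genes, since probe sets differ in response. In bulk RNA, fewer cells with a transcript and less of it per cell cannot be told apart.

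Signs of these cells and of the arrays bear on all values. Of 7 mesenchymal and osteoblast markers measured, *VIM*, *COL1A1*, *SPARC* and *RUNX2* passed the filter, and *COL1A2*, *ALPL* and *SP7* did not. Of 6 epithelial markers 5 passed, all but *KRT5*. *CDKN1A*, which encodes p21, rose with each agent, by 2.47 (SE 0.11) with doxorubicin and 2.30 (SE 0.11) with nutlin-3 (limma, adjusted p = 8.4e-12 and 1.9e-10). Array medians lay between 79.6 and 113.6 at a common trimmed mean. For *ACTB*, the ratio of its 3′ probe set to its 5′ one, a sign of RNA integrity, was 1.53 ± 0.0754 without and 3.12 ± 0.577 with doxorubicin (SD, n = 3, exact 2-sided permutation p = 0.1, the smallest that 3 against 3 allows). It was 1.31 ± 0.0260 with nutlin-3 and 1.28 ± 0.0281 with DMSO (exact permutation p = 0.2). The same ratio of *GAPDH* was 1.02 ± 0.0356 untreated and 1.07 ± 0.116 with doxorubicin (SD, n = 3, exact permutation p = 0.6).

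With doxorubicin, *SERPINB8* and *SERPINB1* rose and *SERPINB7* fell among the genes past the filter, and *SERPINB5* rose in the fit without one. Among all 13673 genes 55.7% were called in this comparison, 30.1% higher and 25.6% lower, so a call is common here and nothing is read from the count of these genes. Higher calls made up 54.0% of the calls, or 38.4% under median centring of the arrays, which shifted the genome-wide median from 0.08 to -0.10. *SERPINB1*, *SERPINB7* and *SERPINB8* kept their calls and directions under it. That run used the filter, which *SERPINB5* passed only through its treated arrays, so its call there is not read as a result. With nutlin-3, the arrays of *SERPINB5*, *SERPINB8* and *SERPINB7* all lay above those of DMSO, and those of *SERPINB1* overlapped with them. Over all genes tested, 43.1% had groups that did not overlap in that comparison.

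**Figure D1:**
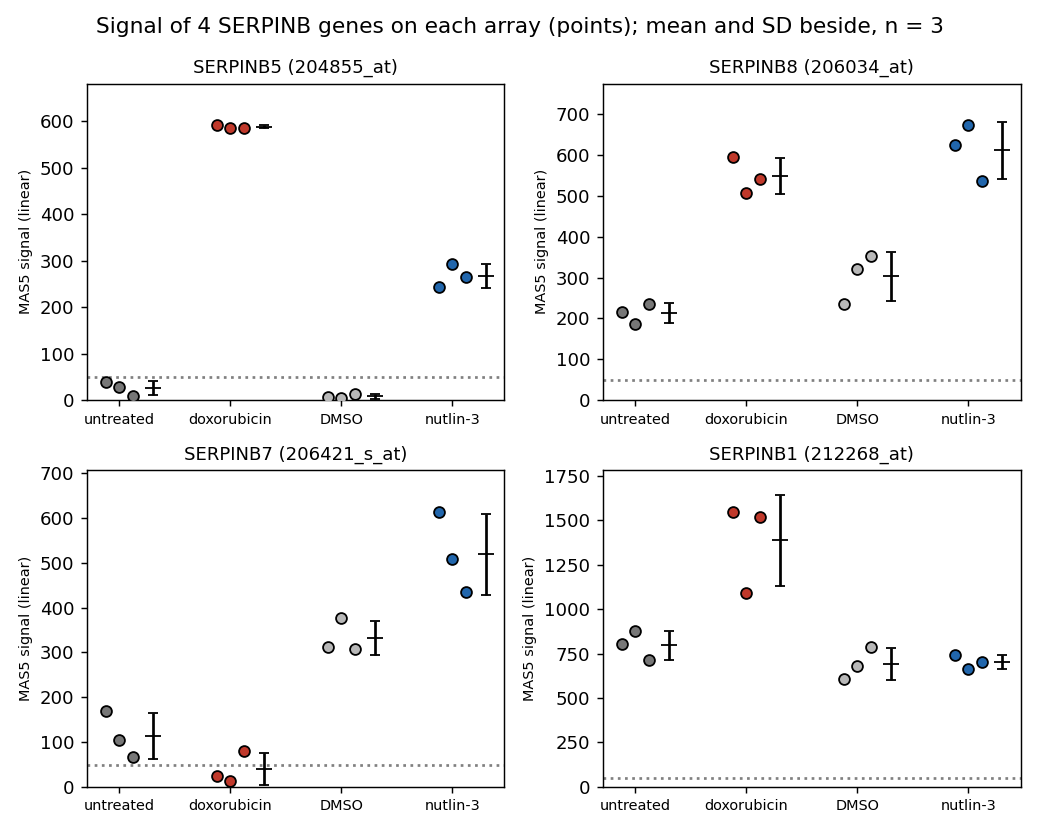
MAS5 signal (linear axis from 0) of the brightest probe set of *SERPINB5*, *SERPINB8*, *SERPINB7* and *SERPINB1* on each of the 12 arrays, by group. Points are arrays, the bar beside them is the mean with its SD (n = 3), and the dotted line is the filter signal of 49.3. *SERPINB5* goes from below that line in both controls to 588 with doxorubicin and 267 with nutlin-3, while *SERPINB7* is highest in the DMSO and nutlin-3 groups.

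*SERPINB5* was close to the floor of the array without an agent and clearly above it with either. Probe set 204855_at gave signals of 39.2, 28.9 and 9.0 in untreated cells and of 592, 586 and 586 with doxorubicin. It gave 6.29, 4.45 and 13.1 with DMSO and 243, 293 and 265 with nutlin-3. All 6 control arrays lay under the filter signal and all 6 treated arrays lay above it, and every doxorubicin array was higher than every nutlin-3 array.

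The rise of *SERPINB5* with doxorubicin was 3.93 on the log2 scale (SE 0.29, adjusted p = 4.3e-08 with limma over every probe set and no filter, higher in 3 of 3 arrays). With nutlin-3 the change was 3.58 (SE 0.27), which is the value that chose the gene. These sizes rest on the pseudocount because the controls were dim. With a pseudocount of 1 they were 4.68 and 5.02, and with 64 they were 2.88 and 2.20. The order of the agents by size of change thus turned with the pseudocount, and the difference of the changes was 0.36 (SE 0.38) at 16 and -0.34 (SE 0.65) at 1. Without untreated array 3 it was 0.02 at a pseudocount of 16. The controls differed by -0.74 (SE 0.27, DMSO minus untreated), with overlapping arrays.

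A further probe set of *SERPINB5*, 1555551_at, stayed near or below the filter signal. Its doxorubicin signals were 52.6, 35.6 and 30.9 against 13.1, 13.9 and 2.83 untreated, and its nutlin-3 signals were 20.9, 28.2 and 33.5 against 10.2, 26.8 and 1.79 with DMSO. The groups did not overlap with doxorubicin and overlapped with nutlin-3. Fitted with every probe set as a feature, where 29.2% were called with doxorubicin, it rose with doxorubicin by 1.11 (SE 0.35, adjusted p = 0.023 with limma). Both probe sets thus went the same way at very different signals.

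The summed signal of epithelial markers did not follow *SERPINB5* in both comparisons, and single markers differed. The summed signal of the 6 epithelial and keratinocyte markers was 27712 to 28990 in untreated cells and 19768 to 24634 with doxorubicin, and it was 20525 to 21175 with DMSO and 26029 to 27499 with nutlin-3. The sum was lower with doxorubicin and higher with nutlin-3, and *KRT18* carried most of it (means of 17872 untreated, 12824 with doxorubicin, 12873 with DMSO and 17981 with nutlin-3). The sum thus says little of the dimmer markers. Members did not move alike: *EPCAM* was lower with nutlin-3 (1008 to 620), and *KRT14* was near its DMSO level there (97.2 to 90.8). With doxorubicin *KRT14* was lower (372 to 109), and *KRT8* was near its untreated level (8277 to 8175). *CDH1* had higher means in both comparisons, as *SERPINB5* did. They went from 78.2 ± 22.3 to 91.0 ± 14.7 with doxorubicin and from 70.4 ± 8.88 to 98.3 ± 23.2 with nutlin-3 (SD, n = 3). The part of these markers in the *SERPINB5* values was not tested.

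*SERPINB8*, an intracellular serpin that can inhibit the proprotein convertase furin, lies at the far end of the chromosome 18 cluster. Probe set 206034_at gave 216.5, 187 and 234.5 untreated and 595, 507 and 542 with doxorubicin. It gave 235, 320.0 and 352 with DMSO and 624, 674 and 535 with nutlin-3. Treated and control arrays did not overlap with either agent, and the doxorubicin and nutlin-3 arrays overlapped with each other.

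The rise of *SERPINB8* with doxorubicin was 1.30 (SE 0.15, adjusted p = 1.3e-06 with limma), a 2.58-fold ratio of mean signals, and 0.81 with the mean of its probe sets in place of the brightest one. With nutlin-3 the change was 0.99 (SE 0.15), a ratio of 2.02. Its other probe set, 1554616_at, was dimmer and moved little, from 131 ± 40.3 to 163 ± 22.2 with doxorubicin and from 60.2 ± 10.4 to 78.5 ± 6.08 with nutlin-3 (SD, n = 3). Its change with doxorubicin was 0.31 (SE 0.25) and did not pass (limma over every probe set, adjusted p = 0.40). The probe sets of *SERPINB8* therefore gave unequal sizes for the same gene.

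*SERPINB7*, known as megsin and expressed in kidney mesangium and in upper epidermis, was lower with doxorubicin and higher with nutlin-3. Its single probe set, 206421_s_at, gave 169.5, 104 and 66.8 untreated and 25.3, 13.4 and 80.7 with doxorubicin. It gave 311, 376 and 308 with DMSO and 614, 509 and 435 with nutlin-3. The doxorubicin and untreated arrays overlapped through doxorubicin array 3, and the nutlin-3 arrays lay above all DMSO arrays.

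*SERPINB7* fell by 1.32 with doxorubicin on the log2 scale (SE 0.35, adjusted p = 0.0036 with limma), with all 3 doxorubicin arrays below the mean of the untreated ones. The size was -0.79 with a pseudocount of 64, since the doxorubicin mean of 39.8 ± 35.9 (SD, n = 3) lay under the filter signal. With nutlin-3 the change was 0.61 (SE 0.35). The difference of the changes was -1.94 (SE 0.49), which was not tested. The controls of *SERPINB7* also differed: DMSO was higher than untreated by 1.5 (SE 0.35, adjusted p = 0.0086 with limma, 3 of 3 arrays), where 14.1% of all genes were called.

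*SERPINB1*, which protects cells from neutrophil serine proteases such as elastase, rose with doxorubicin in its 2 brighter probe sets. Probe set 212268_at gave 803, 875 and 712 untreated and 1549, 1094 and 1519 with doxorubicin. It gave 609, 683 and 788 with DMSO and 741, 662 and 703 with nutlin-3. The doxorubicin arrays lay above all others, and the remaining groups overlapped.

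The rise of *SERPINB1* with doxorubicin was 0.78 (SE 0.13, adjusted p = 1.1e-04 with limma), and 0.39 with the mean of its 4 probe sets. The change with nutlin-3 was 0.02 (SE 0.13). Probe set 213572_s_at went from 760 ± 11.0 to 1091 ± 48.5 with doxorubicin and from 562 ± 41.6 to 594 ± 7.75 with nutlin-3 (SD, n = 3). Probe sets 228726_at and 239213_at had doxorubicin changes of 0.23 (SE 0.19) and 0.04 (SE 0.31), neither past the threshold (limma over every probe set, adjusted p = 0.43 and 0.94). Thus 2 of its 4 probe sets passed. *SERPINB1* is also a gene of blood cells, and the summed signal of 5 leukocyte markers was 176 to 280 untreated and 514 to 806 with doxorubicin. It was also higher with nutlin-3, at 322 to 448 against 132.8 to 193 with DMSO, where the *SERPINB1* change was 0.02. *LAPTM5* made up most of the doxorubicin sum, at 509 ± 141 with doxorubicin, while *PTPRC* was at 81.8 ± 19.1 and *CD14* at 7.51 ± 6.64 (SD, n = 3). The part of these transcripts, and of the *ACTB* ratio, in the *SERPINB1* value was not tested.

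*SERPINB9*, the intracellular inhibitor of granzyme B, did not pass the filter with any of its 3 probe sets. The brightest, 209722_s_at, gave 34.6, 35.1 and 62.3 untreated, 84.5, 61.4 and 78.6 with doxorubicin, 38.4, 48.4 and 45.1 with DMSO, and 36.6, 60.6 and 29.5 with nutlin-3. The groups overlapped in both comparisons. Without the filter its change with doxorubicin was 0.62 (SE 0.31, adjusted p = 0.15 with limma over every probe set). The others, 209723_at and 242814_at, lay between 2.29 and 40.9 on all arrays.

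*SERPINB3*, the squamous cell carcinoma antigen that inhibits cysteine cathepsins, did not pass the filter with either of its probe sets. Probe set 209719_x_at had means of 52.2 ± 30.3 untreated, 53.4 ± 37.6 with doxorubicin, 37.5 ± 7.99 with DMSO and 26.1 ± 20.5 with nutlin-3 (SD, n = 3). Probe set 209720_s_at had signals of at most 15.1. The groups of 209719_x_at overlapped throughout, with a doxorubicin change of -0.06 (SE 0.51). *SERPINB3* and *SERPINB4* are near-identical copies, and a probe set that the annotation gives to both, 210413_x_at, was left out.

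**Figure D2:**
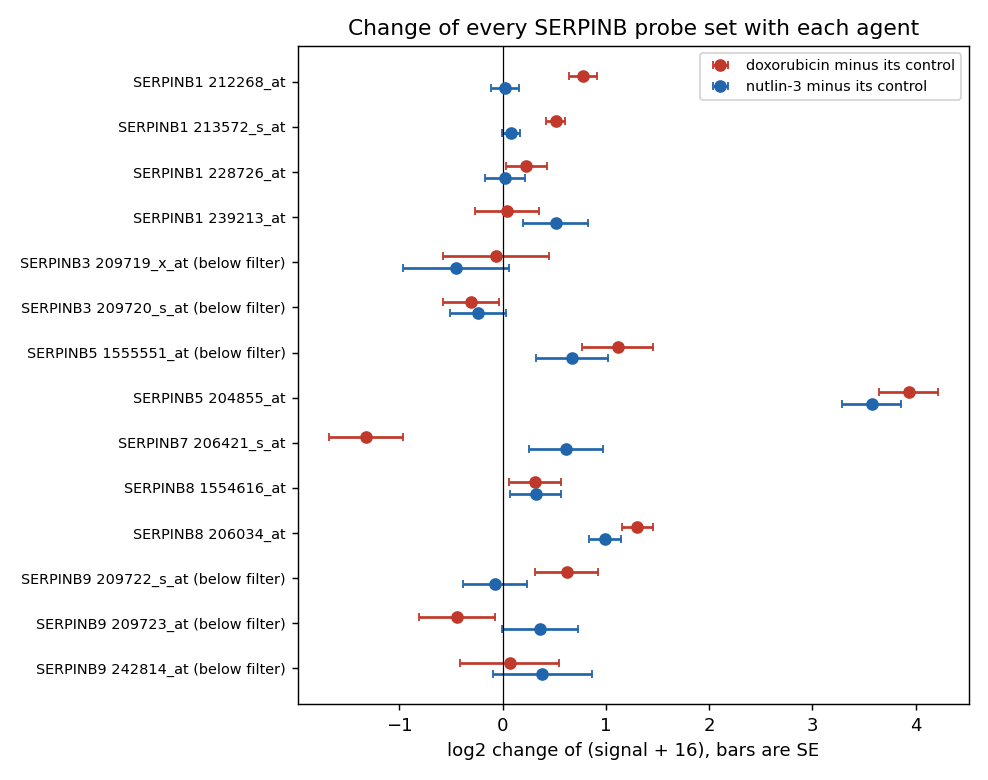
Change of log2(signal + 16) for each of the 14 probe sets, doxorubicin minus untreated (red) and nutlin-3 minus DMSO (blue), with SE bars from the fit over all probe sets (n = 3 per group). The *SERPINB5* probe set 204855_at stands far to the right with both agents, at 3.93 and 3.58, and *SERPINB7* is the one gene past the filter with the agents on opposite sides of 0.

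Counted by probe set, 5 of the 14 rose with doxorubicin and 1 fell when every probe set was fitted, against 29.2% of all 54613 called in either direction. Those that rose were both of *SERPINB5*, 2 of *SERPINB1* and 1 of *SERPINB8*, and the one that fell was that of *SERPINB7*. Among the 8 probe sets past the filter, treated and control arrays did not overlap for 4 with doxorubicin (204855_at, 206034_at, 212268_at and 213572_s_at), all higher, where 58.9% of all genes had groups that did not overlap. They did not overlap for 4 with nutlin-3 (204855_at, which chose the list, 206034_at, 1554616_at and 206421_s_at), where the share of all genes was 43.1%. Both counts include 204855_at, which passed the filter only through its treated arrays and so had to differ. The shares are of genes by their brightest probe set, whereas the counts are of probe sets, so nothing is read from these counts.

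Several probe sets differed between the arms of the design. In 4 of the 14, the 6 untreated and doxorubicin arrays did not overlap the 6 DMSO and nutlin-3 arrays. The share was 5.7% of all 54613 probe sets and 8.66% of those past the filter. All 4 were among the 8 member probe sets past the filter, so 8.66% is the share for these 8. Probe sets of the same gene, as for *SERPINB1*, are counted separately. For 239213_at of *SERPINB1* the untreated and doxorubicin arrays gave 101 to 176 and the DMSO and nutlin-3 arrays 13.9 to 45.7. For 213572_s_at of *SERPINB1* these ranges were 752 to 1135 and 515 to 602, and for 1554616_at of *SERPINB8* they were 94.7 to 182 and 50.9 to 85.3. *SERPINB7* ran the other way, with 13.4 to 170 in the former and 308 to 614 in the latter. The solvent and any other difference between these arms cannot be told apart.

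In the test of DMSO against untreated cells, 2 of the 3 genes considered were called, where 8.14% of all genes were called higher and 5.98% lower. They were *SERPINB7* as given above and *SERPINB8* at 0.46 (SE 0.15, adjusted p = 0.049 with limma). The call of *SERPINB8* was lost in 19 of 25 alternatives and its sign turned with the mean of its probe sets, since 1554616_at was lower with DMSO by 0.92 (SE 0.25, adjusted p = 0.038 over every probe set) while 206034_at was higher. *SERPINB1* did not pass with its brightest probe set (-0.20, SE 0.13, adjusted p = 0.36) and passed at -0.71 with the mean of its probe sets (adjusted p = 0.0013). Its 239213_at fell by 2.02 (SE 0.31, adjusted p = 0.0013) and 213572_s_at fell by 0.43 (SE 0.09, adjusted p = 0.0095) in the fit of every probe set, where 6.36% were called.

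**Figure D3:**
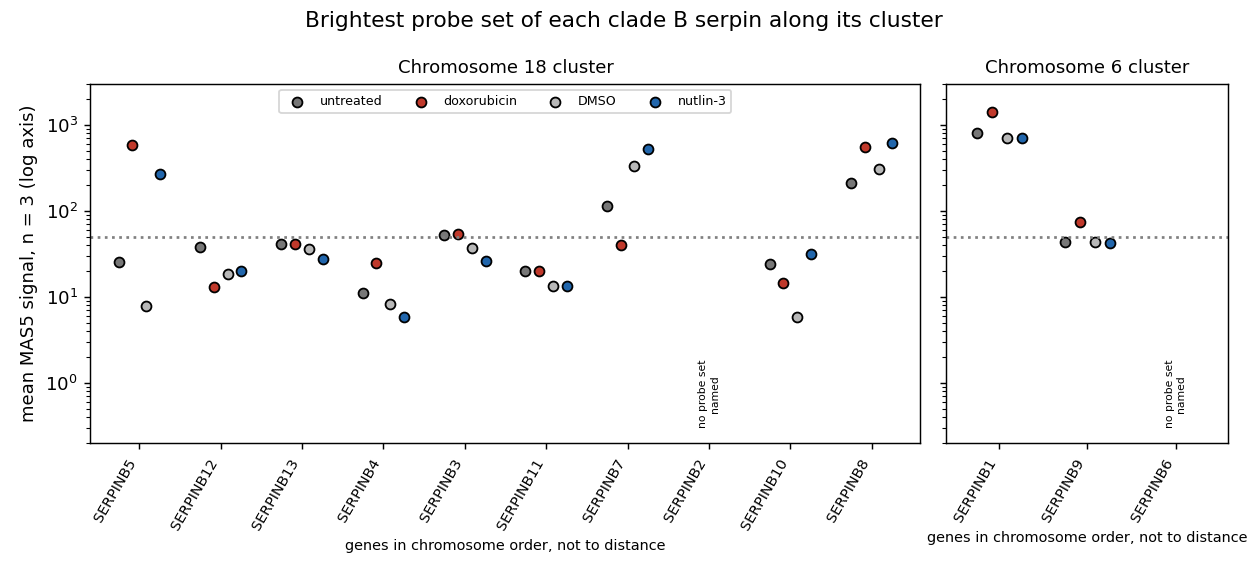
Mean MAS5 signal (log axis, n = 3) of the brightest probe set of each clade B serpin in each group, with genes in the order of their cluster on chromosome 18 (left) and chromosome 6 (right). The dotted line is the filter signal of 49.3. On chromosome 18 *SERPINB8* is above it in all 4 groups, *SERPINB7* in all but doxorubicin (39.8), and *SERPINB5* in the treated groups, and *SERPINB3* lies near the line in untreated and doxorubicin cells (52.2 and 53.4).

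The other genes of the chromosome 18 cluster with a probe set were dim, and *SERPINB2* was not measured. *SERPINB4*, *SERPINB10*, *SERPINB11*, *SERPINB12* and *SERPINB13* together had 10 probe sets, of which 0 passed the filter. Their signals lay between 0.483 and 61.8 with a median of 10.8 over all arrays. In the fit of every probe set 0 of 10 were called with doxorubicin, where 29.2% of all were. That share includes brighter probe sets, so nothing is read from the count for these dim ones. Among the genes of this cluster measured, those past the filter were *SERPINB5* and *SERPINB8* at the ends of the cluster and *SERPINB7* within it.

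Genes flanking the clusters were looked up by position, after the data had been seen, and are given without a test. Beside *SERPINB5* lie *VPS4B*, an endosomal ATPase gene, with changes of 0.33 (SE 0.14) with doxorubicin and 0.17 (SE 0.14) with nutlin-3, and then *KDSR*, which encodes a reductase of ceramide synthesis, with 1.40 (SE 0.10) and 0.59 (SE 0.10). *BCL2*, the next gene out, had 0.38 (SE 0.30) and 0.04 (SE 0.30). Beyond *SERPINB8* lie *CDH7* and *CDH19*, both below the filter, and *DSEL* with 1.37 (SE 0.17) and 0.10 (SE 0.17). Beside the chromosome 6 cluster *NQO2*, a quinone reductase gene, had 1.25 (SE 0.10) and -0.45 (SE 0.10), and *BPHL* had -1.16 (SE 0.19) and -0.12 (SE 0.19). On its other side *WRNIP1* had 0.30 (SE 0.10) and -0.14 (SE 0.10), and *GMDS*, a fucose synthesis gene, had -1.03 (SE 0.18) and 0.13 (SE 0.18). *VPS4B*, *KDSR*, *BCL2* and *DSEL* all had positive changes with each agent, those of *KDSR* being the largest. No relation of these genes to *SERPINB5* was tested.

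Genes with a pattern most like *SERPINB5* over the 12 arrays were ranked by Pearson's r of log2(signal + 16), as a description. The 5 nearest were *SYTL1*, *FAM210B*, *CERS5*, *CD82* and *TRIM22*, with r between 0.987 and 0.989. *SYTL1*, a synaptotagmin-like gene, had changes of 1.81 (SE 0.11) with doxorubicin and 1.85 (SE 0.11) with nutlin-3. *CD82*, a tetraspanin gene, went from 384 ± 84.2 to 1755 ± 126 and from 226 ± 46.4 to 1090 ± 191 (SD, n = 3). *FAM210B* changed by 2.33 (SE 0.09) and 1.79 (SE 0.09), *CERS5*, a ceramide synthase gene, by 1.62 (SE 0.10) and 1.24 (SE 0.10), and *TRIM22* by 1.40 (SE 0.09) and 1.53 (SE 0.09). All points share the same 4 groups, so any gene higher with both agents correlates. Within the family, r with *SERPINB5* was 0.84 for *SERPINB8*, 0.65 for *SERPINB1* and -0.33 for *SERPINB7* (n = 12 arrays).

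**Figure D4:**
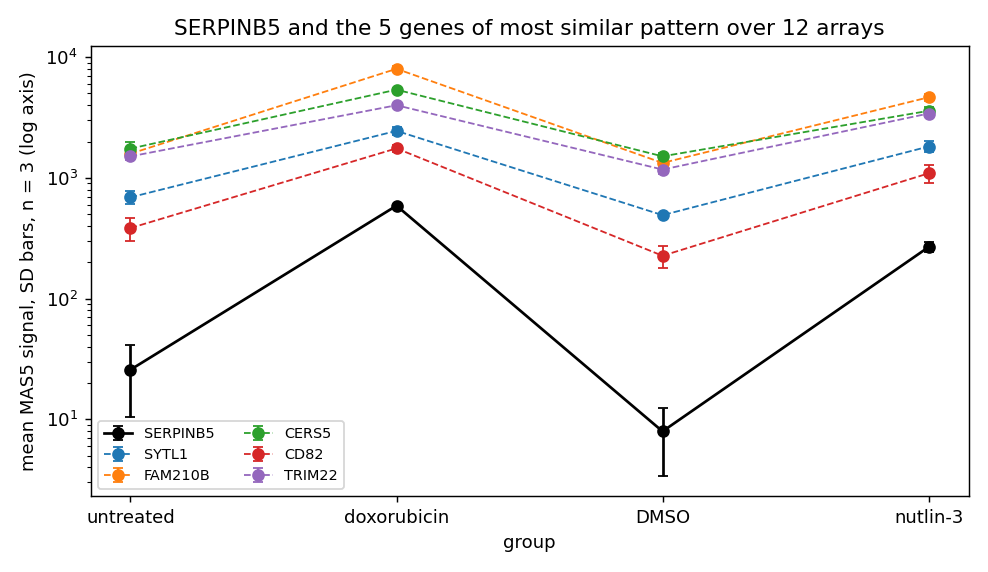
Mean MAS5 signal (log axis) with SD bars (n = 3) of *SERPINB5* and of the 5 genes with the highest correlation to it over 12 arrays, by group, with lines joining the values of a gene. All 6 are higher in both treated groups than in both controls, and *SERPINB5* is at 25.7 untreated and 7.93 with DMSO.

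Of 16 genes for proteases that clade B serpins inhibit, all had a probe set and 9 were tested, of which 6 rose and 0 fell with doxorubicin (30.1% and 25.6% of all genes), with a median change of 0.89 against 0.08 for all genes. *PLAT*, the tissue plasminogen activator gene, rose by 2.24 (SE 0.12) and *CTSL*, which encodes cathepsin L, by 1.83 (SE 0.11). *FURIN*, whose product *SERPINB8* can inhibit, rose by 0.89 (SE 0.20, limma adjusted p = 9.8e-04). With nutlin-3, where 26.4% of all genes were called (12.5% higher and 13.9% lower), 0 rose and 1 fell, with a median of -0.04 against 0.01 for all genes. The one that fell was *CTSV*, a cathepsin gene, by 0.81 (SE 0.12), while it rose by 1.42 (SE 0.12) with doxorubicin.

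Serpins of other clades went both ways. Of 12 genes with a probe set 7 were tested, and 4 rose and 3 fell with doxorubicin, where 30.1% and 25.6% of all genes did (median 0.98 against 0.08 for all genes). With nutlin-3 2 rose and 2 fell, where 12.5% and 13.9% of all genes did (median -0.36 against 0.01). *SERPINA3*, an acute phase inhibitor, rose by 2.28 (SE 0.31) and *SERPINI1*, neuroserpin, by 1.16 (SE 0.25) with doxorubicin. *SERPINA1*, which encodes alpha-1 antitrypsin, rose by 1.57 (SE 0.10) and *SERPINE2* by 0.40 (SE 0.07) with nutlin-3. Both also rose with doxorubicin, by 0.98 (SE 0.10) and 1.04 (SE 0.07). The collagen chaperone gene *SERPINH1* fell with each agent, by 0.78 (SE 0.10) and 0.70 (SE 0.10). *SERPING1*, the complement C1 inhibitor gene, fell by 0.88 (SE 0.17) with doxorubicin. *SERPINF1* fell by 0.36 (SE 0.11) with nutlin-3 (adjusted p = 0.026 with limma), a call that was lost with quantile normalization (adjusted p = 0.053) and with median centring (adjusted p = 0.070). Its fall with doxorubicin was lost without the filter (adjusted p = 0.054).

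Because several clade B serpins mark stratified epithelium, 18 epidermal genes were listed, of which 16 had a probe set and 7 were tested. With doxorubicin 2 rose and 1 fell, where 55.7% of all genes were called (median 0.30 against 0.08 for all genes). Without the filter 4 rose, and 7 genes are too few to compare with that share. *CSTA*, which encodes cystatin A, rose by 4.65 (SE 0.12), *PI3*, the elafin gene, by 1.32 (SE 0.17), and *TGM1*, which crosslinks the cornified envelope, fell by 1.72 (SE 0.32). With nutlin-3 1 rose and 1 fell, where 26.4% of all genes were called (median 0.07 against 0.01): *CSTA* rose by 1.38 (SE 0.12), and *SLPI*, a secreted elastase inhibitor gene, fell by 0.75 (SE 0.25, limma adjusted p = 0.037, and 0.075 without the filter).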

How the data were processed

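Linear MAS5 signal intensity values, 1 per probe set and array, were made by the authors, per the submitters' processing notes. No version or settings are given in the sources used here. The table held 54675 probe sets, of which 62 controls were left out. The platform annotation gave 1 symbol for 41097 probe sets, updated through the gene identifier to RefSeq (GRCh38.p14). From the deposited values log2(signal + 16) was computed here. Probe sets with a mean under the 40th percentile were left out, and each gene was represented by its brightest remaining probe set with 1 symbol. All 12 arrays were fitted with 4 group means in limma 3.58.1 (R 4.3.3, lmFit and eBayes with an intensity trend), with Benjamini-Hochberg adjustment over the 13673 genes and a threshold of 0.05. The code was tested on simulated data. Every probe set was also fitted as a feature, without a filter. The members, lists and motifs were chosen with earlier results of these data known. Named genes are the members, up to 2 called genes with the largest rise and fall per list and agent, *CDKN1A*, and the 5 genes nearest to *SERPINB5*. *MDM2*, also in that rule, is not described. *FURIN*, *LAPTM5*, *CD3E*, *PTPRC*, *CD14*, *LYZ* and the flanking genes were named after their values were seen. The number of arrays limits the precision. Alternatives covered scaling, pseudocount, filter, choice of probe set, variance trend, arrays fitted, replicate block, threshold and each array left out.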

Additional observations from a re-analysis of the deposited data

Results flagged for a closer look

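*SERPINB7* was picked out because its arrays moved in opposite directions with the agents: all 3 doxorubicin arrays lay below the mean of the untreated arrays and all 3 nutlin-3 arrays lay above that of DMSO. The doxorubicin and untreated arrays overlapped through doxorubicin array 3, and the doxorubicin mean lay under the filter signal. Fitted with the 6 arrays of the comparison alone, the change with doxorubicin was -1.32 (SE 0.47, limma adjusted p = 0.030). The difference of the changes was -1.94 on the log2 scale (SE 0.49), and this difference was not tested.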

How the results depend on the processing

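With doxorubicin, the counts of 3 genes higher (*SERPINB5*, which passed the filter through its treated arrays, among them) and 1 lower were kept in every alternative run except the 60th percentile filter and the mean of all probe sets, where *SERPINB5* fell under the filter and 2 were higher. Without each array in turn the counts stayed at 3 and 1, and the change of *SERPINB5* ranged from 3.60 to 4.17. In the main fit 30.1% of all genes were called higher and 25.6% lower, so nothing is read from these counts. *SERPINB5* with nutlin-3 was at 5.02 (pseudocount 1) and 2.20 (pseudocount 64), and at 3.47 to 3.72 without each array. In DMSO against untreated cells, where 14.1% of all genes were called in the main fit, the count was 1 with a pseudocount of 64, with no filter and with every probe set as a feature. It was also 1 with no trend, with 6 arrays, with the replicate block and at an adjusted p under 0.01. With _x_at and _s_at probe sets avoided only where a gene had others, it was 1 too, and it was 1 to 2 without each array. *SERPINB7* was called in each of these settings, always with its single probe set, 206421_s_at. *SERPINB8* there had -0.23 with the mean of all probe sets. For *SERPINB1* with nutlin-3 the change was between -0.06 and 0.12 without each array, at -0.064 without DMSO array 1 and -0.02 without nutlin-3 array 1. The difference of the *SERPINB5* changes was -0.34 with a pseudocount of 1. The cause of these shifts was not tested.

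Arrays with the same replicate number did not deviate together (correlations of -0.09 to -0.02 with doxorubicin and -0.01 to 0.17 with nutlin-3), so the numbers were not taken as pairs. With the replicate block, 3 genes were higher and 1 lower with doxorubicin, and 1 was called in DMSO against untreated cells. *SERPINB5*, which passed the filter through its treated arrays, was among the 3. In the main fit 30.1% of all genes were called higher and 25.6% lower with doxorubicin, and 14.1% were called in DMSO against untreated cells. Nothing is read from these counts.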
